A study of Homo sapiens with 8 samples.

Results

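The 10 genes described here, DDC, MAOA, HGD, BCHE, TFPI, ACKR3, TM4SF1, PLK2, CAMK2N1 and COLCA1, are 10 of the 19431 genes to which the deposited transcripts were assigned. They were chosen by their measured levels: the level with both inhibitors of p300 and CBP lay below the sum of the changes made by each inhibitor alone. Their transcripts were summed per gene and were also read one by one. All 10 were among the 11876 genes that passed the filter on low values. The working name for them, genes lost only with both inhibitors, is not borne out by the levels of each gene: in both libraries, for example, DDC and MAOA lay below DMSO with A-485 alone, HGD, CAMK2N1 and TM4SF1 lay below DMSO with I-CBP112 alone, and BCHE and TM4SF1 lay above DMSO with A-485 alone. With A-485 alone the log2 change against DMSO was -1.72 in DDC, 1.07 in BCHE and 1.78 in TM4SF1. The levels with each single inhibitor and with DMSO enter the rule that chose the genes, so these changes are given without a test.

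The RNA libraries were made from LNCaP-FGC, a line of an androgen-dependent human prostate carcinoma. The cells received both I-CBP112 and A-485 (called both inhibitors below), A-485 alone, I-CBP112 alone, or the solvent DMSO, for 24 h, with 2 libraries in each of the 4 groups. Neither the labels nor the series text states a dose, and all values come from this 1 line. The sources do not say whether libraries of 1 group came from separate cultures, so errors and p-values measure the spread between these libraries, which may be technical.

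p300 and CBP are closely related coactivators. Their acetyltransferase domain places acetyl groups on histones and other proteins, and their bromodomain binds acetylated lysines, so that the same protein both writes the mark and is held by it. A-485 blocks the catalytic site of the acetyltransferase and I-CBP112 blocks the bromodomain. In prostate cells both coactivators work at enhancers of androgen-regulated genes. The 10 genes fall into several classes: enzymes of monoamine and amino acid metabolism (DDC, MAOA, HGD), secreted proteins (BCHE, TFPI), membrane proteins (ACKR3, TM4SF1), a kinase and a kinase inhibitor (PLK2, CAMK2N1), and COLCA1, named for its place in a colorectal cancer risk locus.

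The values are FPKM (fragments per kilobase and per 1000000 fragments of a library), scaled between libraries. They are called scaled FPKM below and can be compared between genes as levels per length. The depth on transcripts, estimated in M (1000000 fragments), was 15.97 to 28.1 M for libraries of replicate number 1 and 4.46 to 13.6 M for number 2. Both numbers are therefore also given apart where a result could turn on them. The estimated totals used for normalizing were 17.2 to 31.0 M for number 1 and 15.8 to 27.6 M for number 2. Of these totals, 90.7% to 99.2% lay on transcripts in number 1. In number 2 the share was 49.4% with both inhibitors, 33.8% with A-485, 21.5% with I-CBP112 and 22.6% with DMSO. The part of this difference in the levels was not tested. Replicates of a group correlated at r = 0.968 to 0.983 over the genes tested. In DMSO the luminal prostate markers summed to between 4477 and 5451 scaled FPKM, and those of basal cells to between 1.08 and 7.65. With I-CBP112 the basal sum was 0.752 to 15.5, mostly KRT5. Blood markers summed to 1.44 to 1.95 with DMSO and 3.95 to 5.86 with both inhibitors, all of it CD68. PTPRC, CD3E and HBB were at or under 0.1 in every library. Stromal markers summed to 15.1 to 27.1 with DMSO and 23.6 to 24.8 with both inhibitors. Of the 2 tested, COL1A1 was higher with both inhibitors than with DMSO (log2 change 1.35; limma, adjusted p = 0.0035), and ACTA2 did not pass. In a bulk sample fewer cells of a kind and less RNA per cell cannot be told apart.

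Promoter windows are shown for MAOA, BCHE, TM4SF1, PLK2 and COLCA1. In these 5 genes the annotated start of the most abundant transcript lay inside a RefSeq window. The RefSeq start lay downstream of that start by 80 bases in MAOA, 49 in BCHE, 216 in TM4SF1 and 174 in PLK2, and at it in COLCA1. In TM4SF1 and PLK2 most of the window and all marked motifs therefore lie downstream of the transcript start. Other forms, such as MAOA-204, start outside the windows. Each window runs from 250 bases before to 50 bases after a RefSeq start, 5' to 3' on the gene's strand (RefSeq, GRCh38.p14). Capitals mark the motifs searched on both strands: the letters TATAAA of core promoters, the letters CCAAT of upstream promoter boxes, the letters GGGCGG of the GC box, the letters TGACGTCA of the cAMP response element, the letters TGACTCA of the AP-1 element, the letters CACGTG of the E-box, the letters AGAACA of the half-site of an androgen response element, and the letters TGTTTAC of the forkhead element. No 2 of these overlap in a printed window.
MAOA, chrX:43656049-43656348, plus strand: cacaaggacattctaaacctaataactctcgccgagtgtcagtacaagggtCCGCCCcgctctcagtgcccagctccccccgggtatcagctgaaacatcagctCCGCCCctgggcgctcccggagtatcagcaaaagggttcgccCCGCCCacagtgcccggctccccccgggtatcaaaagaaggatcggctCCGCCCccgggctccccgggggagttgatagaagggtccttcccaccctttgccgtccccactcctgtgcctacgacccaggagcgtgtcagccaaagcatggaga
BCHE, chr3:165837374-165837673, minus strand: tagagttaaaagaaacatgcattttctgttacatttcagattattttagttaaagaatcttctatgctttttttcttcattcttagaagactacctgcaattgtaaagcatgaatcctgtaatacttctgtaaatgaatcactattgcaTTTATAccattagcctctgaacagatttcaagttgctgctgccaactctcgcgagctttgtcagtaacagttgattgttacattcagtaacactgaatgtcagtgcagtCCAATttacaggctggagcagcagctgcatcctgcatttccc
TM4SF1, chr3:149377600-149377899, minus strand: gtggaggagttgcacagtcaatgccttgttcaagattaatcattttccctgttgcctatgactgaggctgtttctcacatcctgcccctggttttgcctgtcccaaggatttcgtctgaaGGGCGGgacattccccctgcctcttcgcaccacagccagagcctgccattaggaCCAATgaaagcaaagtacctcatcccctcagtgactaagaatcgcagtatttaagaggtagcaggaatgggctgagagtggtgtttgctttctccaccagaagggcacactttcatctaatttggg
PLK2, chr5:58460037-58460336, minus strand: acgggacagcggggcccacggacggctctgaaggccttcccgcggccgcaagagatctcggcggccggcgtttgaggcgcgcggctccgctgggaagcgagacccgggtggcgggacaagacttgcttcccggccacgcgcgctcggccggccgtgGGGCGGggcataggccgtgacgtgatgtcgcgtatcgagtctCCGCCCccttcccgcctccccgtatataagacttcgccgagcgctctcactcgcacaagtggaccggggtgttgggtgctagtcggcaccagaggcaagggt
COLCA1, chr11:111300183-111300482, minus strand: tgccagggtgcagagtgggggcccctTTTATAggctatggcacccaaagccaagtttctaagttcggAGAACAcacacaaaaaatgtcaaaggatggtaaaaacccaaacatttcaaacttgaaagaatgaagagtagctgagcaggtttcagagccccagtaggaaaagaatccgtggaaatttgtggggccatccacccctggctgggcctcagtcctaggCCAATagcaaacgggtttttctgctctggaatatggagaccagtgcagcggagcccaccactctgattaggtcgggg

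No single motif was held by all 5 windows. The GC box occurred 4 times in the MAOA window, 2 times in the PLK2 window and 1 time in the TM4SF1 window, and 45.0% of all 35116 RefSeq windows held it. The CCAAT letters stood in the BCHE, TM4SF1 and COLCA1 windows and in 34.6% of all windows. The BCHE and COLCA1 windows held TATAAA, against 11.5% of all windows, and the COLCA1 window held the half-site, against 14.8% of all. In base composition the windows ranged widely, with 36.7% G and C in BCHE, 50% in TM4SF1, 50.3% in COLCA1, 63.0% in MAOA and 70.0% in PLK2, around a median of 58.7% over all windows. The cAMP, AP-1, E-box and forkhead letters were in none of the 5. These matches describe the letters and are not binding sites.

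Every value below that sets both inhibitors beside the other groups is a description without a test, because those values chose the genes. Changes are differences of log2(scaled FPKM + 1), with the standard error of the fit after the ± sign (n = 2 libraries per group). The interaction is the change with both inhibitors minus the sum of the 2 single changes.

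**Figure D1:**
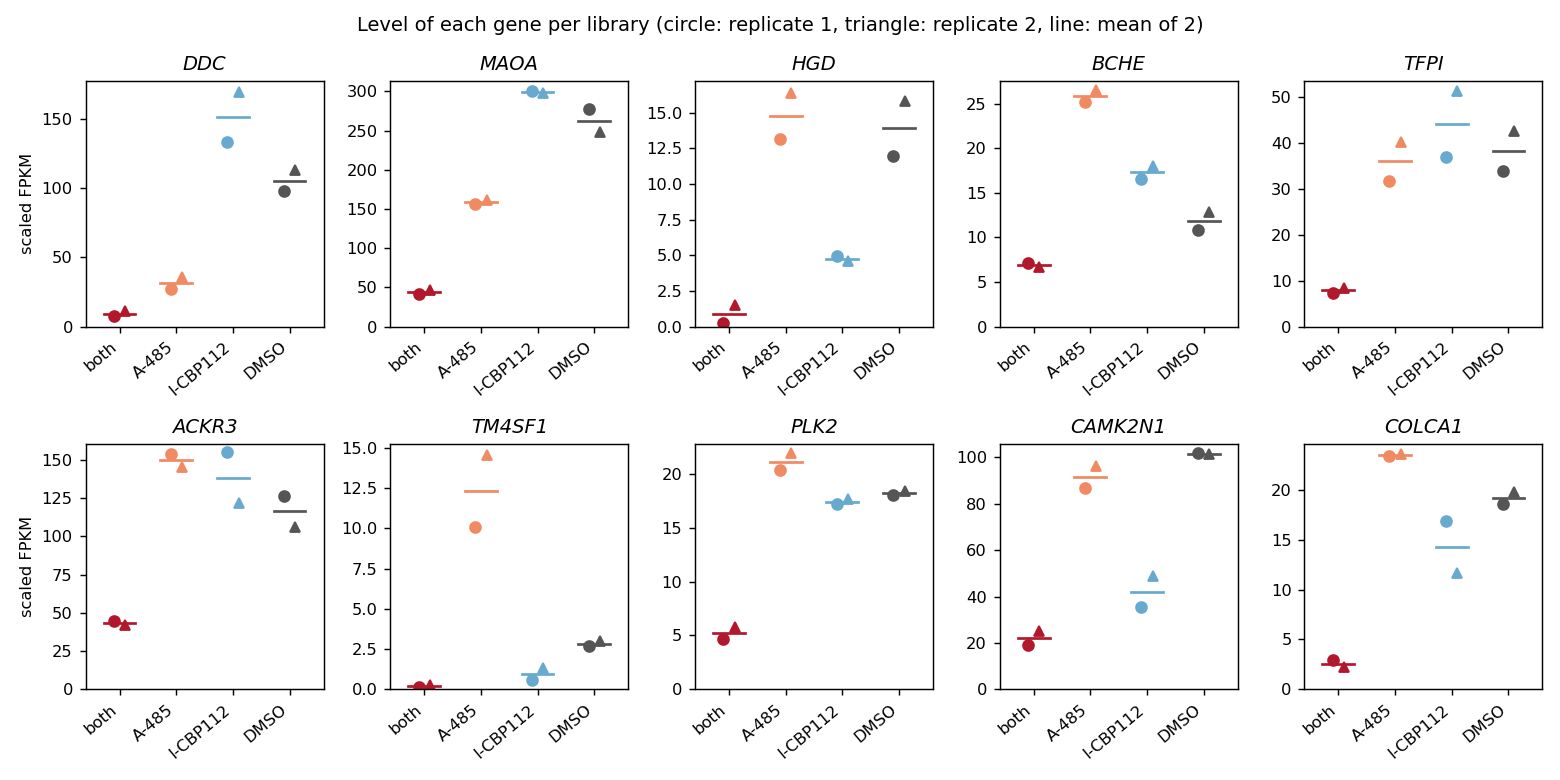
Level of each of the 10 genes in scaled FPKM (vertical axis, linear, a scale of its own per gene) in the 2 libraries of each group; circles are replicate 1, triangles replicate 2 and lines the mean. In all 10 genes both libraries with both inhibitors lie below the other 6, while the A-485 and I-CBP112 libraries take different places from gene to gene.

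DDC, MAOA and HGD encode enzymes. DDC (chr7:50458436-50565457, minus strand, GRCh38) makes dopamine and serotonin from their amino acid precursors. Its level was 7.43 and 11.3 scaled FPKM with both inhibitors, 27.2 and 35.8 with A-485, 134 and 169.6 with I-CBP112, and 98.1 and 113 with DMSO. The 4 groups did not overlap, with I-CBP112 highest and both inhibitors lowest. The level with both inhibitors was 8.89% of the DMSO mean. Added on the log2 scale, the single changes would have given 44.9 scaled FPKM, against the 9.20 measured on that scale, an interaction of -2.17 ± 0.35. It was -2.18 within replicate number 1 and -2.16 within number 2.

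MAOA (chrX:43654907-43746824, plus strand) is the mitochondrial oxidase that breaks down serotonin and noradrenaline. With both inhibitors it stood at 41.8 and 46.1 scaled FPKM, with A-485 at 156 and 162, with I-CBP112 at 300.4 and 298, and with DMSO at 277 and 248. Its order of groups was that of DDC, but the step with A-485 was smaller, a log2 change against DMSO of -0.72 ± 0.18 where DDC had -1.72 ± 0.25. The sum of the single changes corresponds to 181 scaled FPKM and the interaction was -2.02 ± 0.25, with -1.99 within replicate number 1 and -2.05 within number 2. MAOA had the highest level with DMSO of the 10 genes.

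HGD (chr3:120628173-120682571, minus strand) opens the ring of homogentisate in the breakdown of tyrosine. It measured 0.259 and 1.49 scaled FPKM with both inhibitors, 13.2 and 16.4 with A-485, 4.94 and 4.57 with I-CBP112, and 12.0 and 15.8 with DMSO. A-485 and DMSO libraries overlapped, and I-CBP112 lay between them and both inhibitors. The libraries with both inhibitors held only about 3.6 and 12.9 fragments of HGD, so that this level is loosely fixed. The interaction was -1.79 ± 0.45, the widest error of the 10, and -2.37 and -1.21 within replicate numbers 1 and 2. With a pseudocount of 0.1 in place of 1 it was -2.78.

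Other genes of the same pathways were read from 2 lists. Of 18 listed genes of monoamine synthesis, storage and breakdown, 5 passed the filter on low values, and with both inhibitors against DMSO 0 of these 5 passed the test in either direction (limma, Benjamini-Hochberg adjusted p under 0.05), where 10.5% of all genes tested did, so that a count of 0 among 5 is not a result about the list. Their median log2 change was 0.10, beside 0.01 over all genes tested. TH, which makes the precursor that DDC uses for dopamine, reached at most 0.134 scaled FPKM in any library, and MAOB, the sister gene of MAOA, at most 0.179. Of the 7 listed enzymes of tyrosine breakdown 4 were tested and 0 passed with both inhibitors, a number likewise too small to read against 10.5%. GSTZ1, which isomerizes a later product of the path on which HGD lies, had 176 and 163 scaled FPKM with both inhibitors, against 155 and 100.1 with DMSO (0.44 ± 0.23; limma, adjusted p = 0.267). FAH, the last enzyme of that path, had 53.5 and 48.7 with both inhibitors, against 88.5 and 56.2 with DMSO (-0.46 ± 0.25; limma, adjusted p = 0.273). HPD, which makes homogentisate, reached at most 0.174 scaled FPKM.

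BCHE and TFPI encode secreted proteins. BCHE (chr3:165772904-165837472, minus strand) is the cholinesterase of plasma. Its level was 7.08 and 6.68 scaled FPKM with both inhibitors, 25.2 and 26.5 with A-485, 16.6 and 18.0 with I-CBP112, and 10.9 and 12.8 with DMSO. Each single inhibitor lay above DMSO in both libraries and the combination lay below it, and none of the 4 groups overlapped. The change with A-485 was 1.07 ± 0.17 and that with I-CBP112 0.51 ± 0.17, whereas the change with both was -0.70 ± 0.17, the smallest of the 10 genes against DMSO. Adding the single changes gives 37.4 scaled FPKM, and the interaction was -2.28 ± 0.24 (-2.27 and -2.30 within replicate numbers 1 and 2). None of the 6 listed genes of acetylcholine handling passed the filter on low values. ACHE, the cholinesterase of synapses, had 0.39 and 0.81 scaled FPKM with both inhibitors and 0.92 and 0.60 with DMSO.

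TFPI (chr2:187464230-187565760, minus strand) inhibits the tissue factor complex that starts coagulation. It was at 7.39 and 8.38 scaled FPKM with both inhibitors, at 31.7 and 40.3 with A-485, at 37.0 and 51.4 with I-CBP112, and at 33.9 and 42.6 with DMSO. The 3 groups without the combination overlapped each other, and both inhibitors stood apart at 20.6% of the DMSO mean. The single changes were -0.08 ± 0.23 with A-485 and 0.19 ± 0.23 with I-CBP112, and the interaction was -2.25 ± 0.32 (-2.09 and -2.40 within replicate numbers 1 and 2).

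Of 14 listed genes of the tissue factor pathway and other anticoagulants, 5 passed the filter. Against DMSO, 3 of the 5 rose with both inhibitors and 0 fell (2.96% of all genes tested rose), with a median log2 change of 0.92 over the 5, beside 0.01 over all genes tested. F2R, the thrombin receptor, had 8.47 and 9.55 scaled FPKM with both inhibitors, against 3.40 and 3.87 with DMSO (1.11 ± 0.18; limma, adjusted p = 0.00832). PROS1, the cofactor protein S, which also binds TFPI, had 3.6 and 4.27, against 0.89 and 2.06 with DMSO (1.03 ± 0.26; limma, adjusted p = 0.0421). PROCR, the receptor of protein C, had 4.08 and 5.93, against 2.10 and 2.17 with DMSO (0.92 ± 0.24; limma, adjusted p = 0.0465). F3, tissue factor itself, reached at most 0.442 scaled FPKM in any library, and TFPI2 at most 0.132.

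ACKR3 and TM4SF1 encode membrane proteins. ACKR3 (chr2:236567787-236582358, plus strand) is an atypical chemokine receptor that takes up CXCL12. It measured 44.6 and 41.9 scaled FPKM with both inhibitors, 154 and 146 with A-485, 155 and 122 with I-CBP112, and 127 and 106 with DMSO. The I-CBP112 libraries overlapped both A-485 and DMSO. A-485 gave 0.37 ± 0.20 and I-CBP112 0.24 ± 0.20 against DMSO, and the interaction was -2.01 ± 0.28 (-2.06 and -1.97 within replicate numbers 1 and 2).

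TM4SF1 (chr3:149369022-149377865, minus strand) is a tetraspan membrane protein that is abundant on endothelium and on several carcinomas. Its level was 0.128 and 0.284 scaled FPKM with both inhibitors, 10.1 and 14.5 with A-485, 0.576 and 1.32 with I-CBP112, and 2.66 and 2.98 with DMSO. The groups were fully separated, with A-485 at the top. With both inhibitors the libraries held about 3.2 and 5.4 fragments of TM4SF1, and with I-CBP112 about 13 and 7.6, so these low levels are loosely fixed. On the log2 scale A-485 gave 1.78 ± 0.26, I-CBP112 -1.0 ± 0.26 and both -1.67 ± 0.26 against DMSO. The interaction of -2.45 ± 0.37 was the lowest of the 10 genes and differed between replicate numbers 1 and 2, at -2.08 and -2.82. The pseudocount of 1 holds these low levels together: with 0.1 the change with both inhibitors was -3.30 and the interaction -3.79. The endothelial markers CDH5 and KDR were at or under 0.1 scaled FPKM in every library. VWF, the third endothelial marker in the table, lay higher with A-485 too, at 7.72 and 4.71 scaled FPKM, and lower with both inhibitors, at 1.25 and 1.01, and with I-CBP112, at 2.11 and 1.68, against 3.43 and 2.45 with DMSO. Its groups thus stood in the same order as those of TM4SF1, and its part in the TM4SF1 level was not tested.

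In the CXCL12 axis, 6 of 13 listed genes were tested, and with both inhibitors against DMSO 2 fell and 0 rose (7.55% of all genes tested fell), with a median log2 change of -0.82, beside 0.01 over all. Of these, ARRB1, beta-arrestin 1, had 12.9 and 11.2 scaled FPKM with both inhibitors, against 24.8 and 21.1 with DMSO (-0.87 ± 0.18; limma, adjusted p = 0.0227). Its interaction was 0.27 ± 0.26, where ACKR3 had -2.01. CXCL12 itself had 0.48 and 0.24 scaled FPKM with both inhibitors, against 1.13 and 2.12 with DMSO, and CXCR4, its signalling receptor, reached at most 0.458 in any library. No family member of TM4SF1 passed the filter on low values.

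PLK2 (chr5:58453982-58460260, minus strand) is a stress-responsive polo-like kinase. It stood at 4.69 and 5.78 scaled FPKM with both inhibitors, 20.3 and 22.0 with A-485, 17.2 and 17.7 with I-CBP112, and 18.1 and 18.4 with DMSO. The 6 libraries without the combination spanned only 17.2 to 22.0, and both inhibitors lay at 28.7% of the DMSO mean. Against DMSO A-485 gave 0.20 ± 0.17 and I-CBP112 -0.06 ± 0.17, with an interaction of -1.77 ± 0.24 (-1.84 and -1.70 within replicate numbers 1 and 2). Among the 10 genes PLK2 lay closest to their mean profile over the 8 libraries, at r = 0.998. The 3 other polo-like kinases that were listed and tested had 0 calls with both inhibitors, beside 10.5% of all genes tested: PLK1 changed by -0.95 ± 0.33 (limma, adjusted p = 0.107), PLK3 by -0.60 ± 0.22 (limma, adjusted p = 0.115) and PLK4 by -0.12 ± 0.31 (limma, adjusted p = 0.836).

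CAMK2N1 (chr1:20482391-20486220, minus strand) is an inhibitor of the kinase CaMKII. Its level was 19.1 and 24.9 scaled FPKM with both inhibitors, 86.8 and 96.1 with A-485, 35.6 and 48.7 with I-CBP112, and 102 and 102 with DMSO. I-CBP112 alone brought it to 41.4% of the DMSO mean and both inhibitors to 21.7%. The sum of the single changes corresponds to 37.3 scaled FPKM, close to the level measured with I-CBP112, so the interaction was only -0.75 ± 0.31 (-0.64 and -0.86 within replicate numbers 1 and 2). CAMK2N1 is therefore the least typical of the 10 genes by the measure that chose them. Of 12 listed CaMKII subunits and regulators 10 were tested, and with both inhibitors 2 fell and 0 rose (7.55% of all genes tested fell and 2.96% rose), around a median log2 change of 0.28, beside 0.01 over all. They were CAMKK1 (-1.14 ± 0.25; limma, adjusted p = 0.0267) and CAMKK2 (-1.10 ± 0.23; limma, adjusted p = 0.0234), kinases upstream of other CaM kinases. The subunit genes CAMK2D (0.58 ± 0.22; limma, adjusted p = 0.131) and CAMK2G (-0.02 ± 0.17; limma, adjusted p = 0.963) and the sister inhibitor CAMK2N2 (0.21 ± 0.23; limma, adjusted p = 0.584) did not pass.

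COLCA1 (chr11:111290787-111305045, minus strand) is annotated by GENCODE as an antisense gene, and its product is poorly understood. It measured 2.95 and 2.20 scaled FPKM with both inhibitors, 23.4 and 23.6 with A-485, 16.9 and 11.7 with I-CBP112, and 18.6 and 19.8 with DMSO. The groups did not overlap, and both inhibitors lay at 13.4% of the DMSO mean. Its interaction was -2.36 ± 0.30 (-2.50 and -2.23 within replicate numbers 1 and 2). Exons of COLCA2 lie on the other strand of the same stretch, and COLCA2 had 0.108 and 0.144 scaled FPKM with both inhibitors, 0.609 and 2.06 with A-485, 0.729 and 0.525 with I-CBP112, and 0.126 and 0.244 with DMSO. The sources do not say whether strand was used in counting, so reads of this pair cannot be told apart. DDC, TFPI and TM4SF1 also overlap annotated genes of the opposite strand, and their values carry the same uncertainty.

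**Figure D2:**
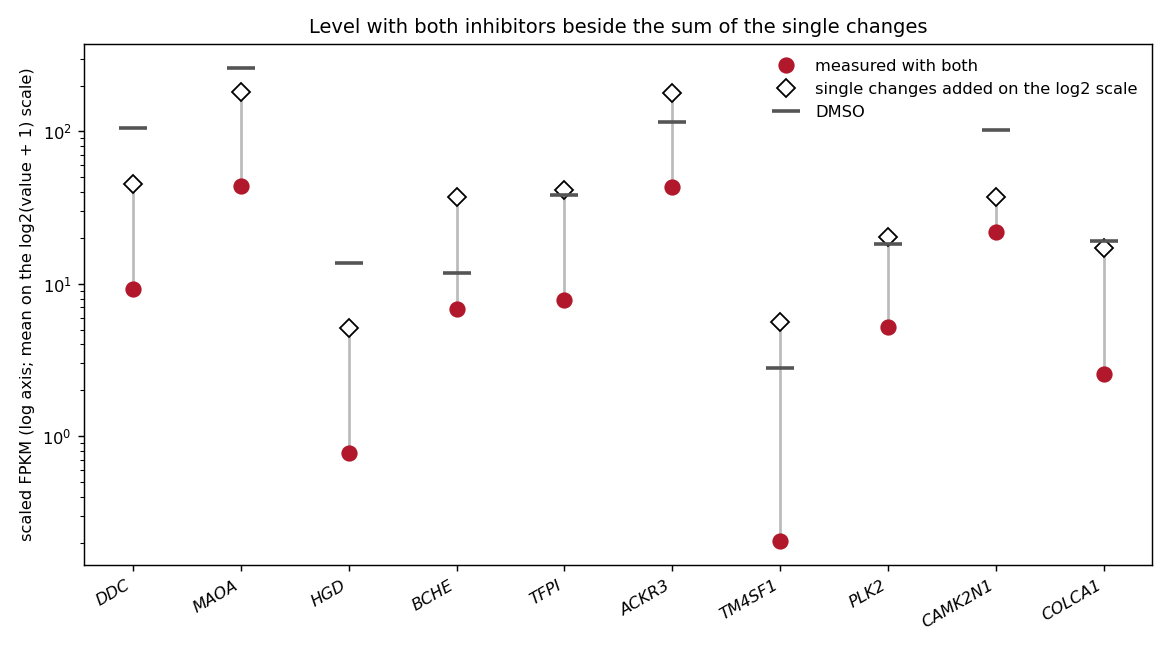
Level with both inhibitors (red circle), the level that the single changes would give when added on the log2 scale (open diamond) and the DMSO level (grey dash), in scaled FPKM on a log axis, for each gene. The circle lies below the diamond in all 10 genes, by least in CAMK2N1 (21.8 against 37.3), and in BCHE, ACKR3 and TM4SF1 the diamond lies clearly above the DMSO dash.

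Read across the 10 genes, the interaction had a median of -2.10, beside 0.04 over all genes tested. It ranged between -2.45 in TM4SF1 and -0.75 in CAMK2N1. Counted from the lowest of 11876 genes, TM4SF1 took rank 13, COLCA1 14, BCHE 19, TFPI 24, DDC 26, MAOA 35, ACKR3 36, HGD 60, PLK2 64 and CAMK2N1 953. The listed genes are thus not the 10 lowest, and the rule that listed them names no cut. No gene passed the interaction test (limma, adjusted p under 0.05, 0% of genes tested, with 1057 genes or 8.9% at an unadjusted p under 0.05), so the interaction stands on no call for any gene of the table. KLK3, the androgen-induced gene of prostate-specific antigen, had an interaction of -2.56 ± 0.27, but unlike most of the 10 it was also lower with each inhibitor alone, at 50.9 and 50.2 scaled FPKM with both, 566 and 633 with A-485, 1099.5 and 1071 with I-CBP112, and 2305 and 1996 with DMSO.

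**Figure D3:**
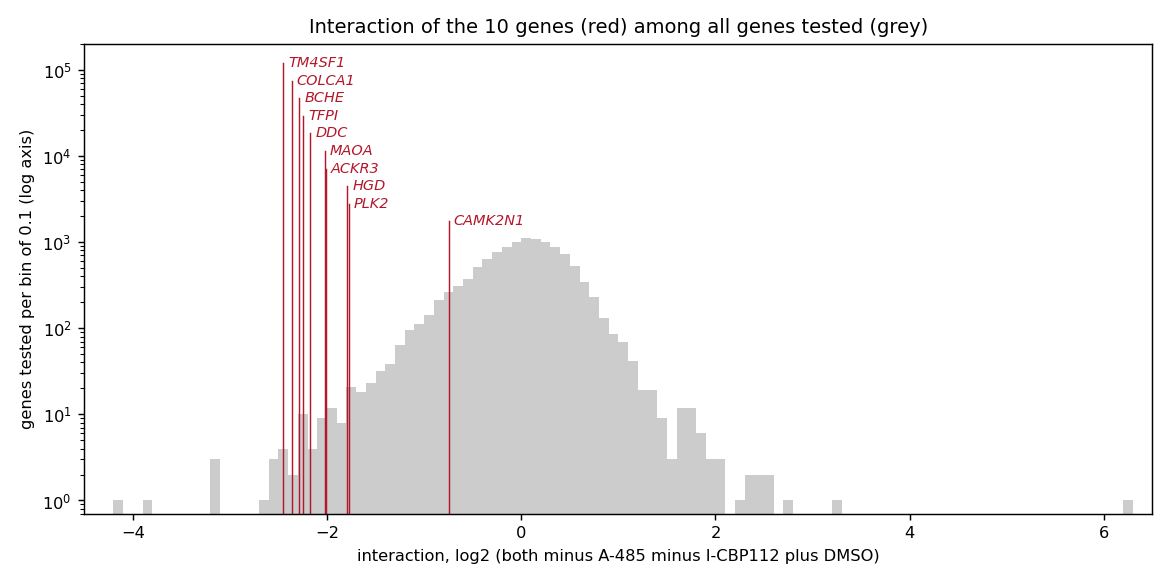
Number of genes tested (vertical log axis) per bin of 0.1 of the log2 interaction (horizontal axis), with a red line at each of the 10 genes. Of the lines, 9 stand in the far left tail, between -2.45 and -1.77, and CAMK2N1 stands at -0.75 inside the bulk.

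Both libraries with both inhibitors lay below all 6 others in 10 of the 10 genes, which 9.5% of the genes tested also did, and the choice of the genes used these values. In 7 of the 10 an inhibitor lay above DMSO when given alone and lowered the level when added to the other, without overlap of the libraries, which 5.58% of the genes tested also did. The changes with both inhibitors against DMSO ranged between -3.38 in DDC and -0.70 in BCHE, and are given without a test because they chose the genes. Over all genes that comparison gave 352 higher and 897 lower calls, and 737 higher and 489 lower where libraries were scaled by their totals only. Its 1249 calls (10.5% of the genes tested) became 291 and 301 without replicate 1 or 2 of the combination and 826 without DMSO replicate 1. With A-485 alone against DMSO, 4.65% of all genes tested passed. With I-CBP112 alone against DMSO, 0% passed (11.1% at an unadjusted p under 0.05). Against A-485 alone the changes with both inhibitors ranged between -3.45 in TM4SF1 and -1.66 in DDC, and against I-CBP112 alone between -3.89 in DDC and -0.67 in TM4SF1.

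The single inhibitors enter the interaction only as a sum, so a choice on the interaction alone does not fix their difference, A-485 against I-CBP112, which was tested. Whether the single levels played any other part in the choice is not known. Of the 10 genes 2 passed, beside 0.85% of all genes tested (101 genes, of which 10 were higher with A-485, 0.0842% of those tested, and 91 lower, 0.766%). DDC was lower with A-485, at 27.2 and 35.8 scaled FPKM, than with I-CBP112, at 134 and 169.6 (log2 fold change -2.24 ± 0.25; limma, adjusted p = 0.0103). TM4SF1 was higher with A-485, at 10.1 and 14.5, than with I-CBP112, at 0.576 and 1.32 (2.78 ± 0.26; limma, adjusted p = 0.00528). Both calls depended on single libraries. DDC no longer passed without A-485 replicate 1 (limma, adjusted p = 0.0807), A-485 replicate 2 (0.0536) or I-CBP112 replicate 2 (0.0943), and TM4SF1 no longer passed without A-485 replicate 2 (0.0536). Its direction was kept in each of these fits, as was that of DDC. The 101 calls became 6 to 48 when any 1 library of an inhibitor group was left out, and 117 and 118 when a DMSO library was.

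The other 8 genes did not pass between the single inhibitors. MAOA was lower with A-485 (-0.91 ± 0.18, 95% interval -1.32 to -0.50; limma, adjusted p = 0.0694). HGD was higher with A-485 (1.45 ± 0.32, interval 0.72 to 2.18; limma, adjusted p = 0.0885), and so was CAMK2N1 (1.11 ± 0.22, interval 0.61 to 1.62; limma, adjusted p = 0.0691). The A-485 and I-CBP112 libraries did not overlap in 8 of the 10 genes, all but ACKR3 and TFPI, beside 48.2% of all genes tested. For COLCA1 the difference was 0.70 ± 0.21, with an interval of 0.21 to 1.19, and for BCHE 0.56 ± 0.17, with an interval of 0.17 to 0.95 (limma, adjusted p = 0.200 and 0.201). The intervals of PLK2, from -0.13 to 0.66, of ACKR3, from -0.34 to 0.58, and of TFPI, from -0.80 to 0.24, held 0. In ACKR3 the difference was -0.01 within replicate number 1 and 0.25 within number 2, and in the other 9 genes the sign was the same in both numbers.

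**Figure D4:**
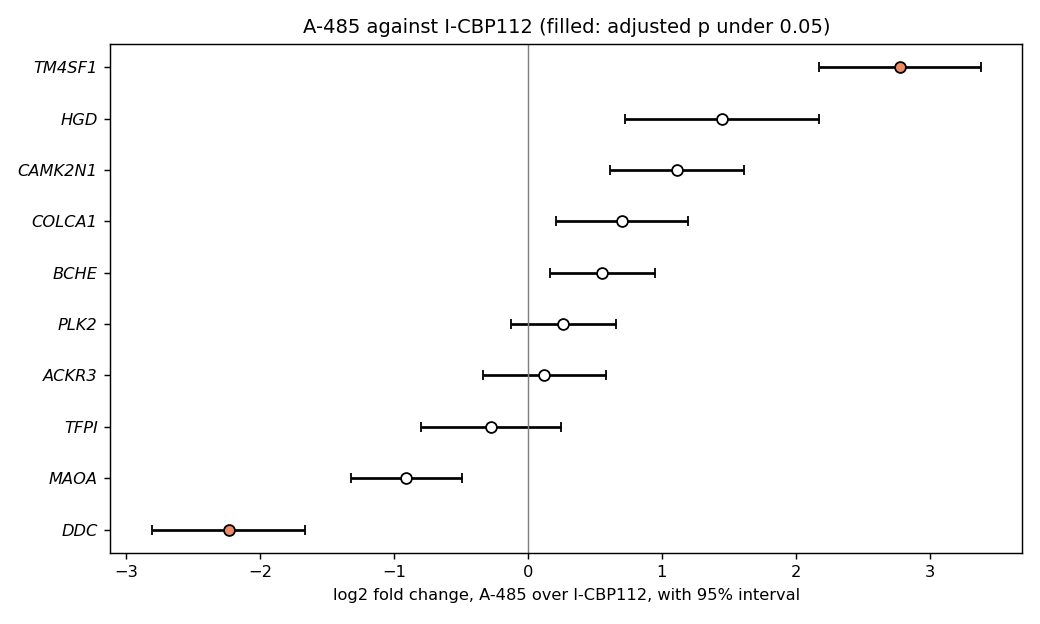
Log2 fold change of A-485 over I-CBP112 (horizontal axis) for each gene, with the 95% interval of the fit; filled circles passed the test. DDC lies lowest at -2.24 and TM4SF1 highest at 2.78, and the intervals of PLK2, ACKR3 and TFPI cross 0.

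The 35 transcripts of the 10 genes in the table showed which forms made up these levels. Of PLK2 and CAMK2N1 only 1 form each was among the 35, so its share was fixed at 100%. TM4SF1 had 2 forms among them and came from TM4SF1-201, apart from 1.49% in 1 library. DDC came almost wholly from 2 shorter forms, DDC-205 and DDC-206, whose annotated starts lie 137 bases apart at chr7:50543982 and chr7:50544119 (GRCh38), 17.1 kb inside the start of the full-length DDC-201. The full-length form reached at most 0.93 scaled FPKM in any library. DDC-205 made up 64.0% and 68.4% of the gene with both inhibitors, 67.2% and 76.3% with A-485, 89.8% and 77.8% with I-CBP112, and 64.3% and 74.3% with DMSO. Its level followed the gene, at 4.75 and 7.76 scaled FPKM with both inhibitors, 18.2 and 27.3 with A-485, 120.1 and 132 with I-CBP112, and 63.1 and 84.1 with DMSO.

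MAOA was split about evenly between MAOA-201 and MAOA-204, which start 1.31 kb apart. MAOA-201 took 46.5% and 58.7% of the gene with both inhibitors, 41.5% and 48.4% with A-485, 45.6% and 58.7% with I-CBP112, and 58.4% and 48.9% with DMSO. ACKR3 came from ACKR3-201 and ACKR3-202, with ACKR3-201 between 47.7% and 74.98% of the gene. In TFPI the form TFPI-203 made up 47.1% and 48.3% of the gene with both inhibitors, 58.1% and 60.8% with A-485, 37.2% and 38.0% with I-CBP112, and 36.5% and 43.4% with DMSO. TFPI-202, whose start lies 40.8 kb upstream of that of TFPI-203, took between 11.9% and 39.4%. BCHE-201 held at least 91.3% of BCHE in every library. HGD was shared by HGD-201, HGD-205 and HGD-210, and HGD-204 held 7.25% in DMSO replicate 2. COLCA1 was shared by COLCA1-203 and COLCA1-204, while COLCA1-201 held 5.92% in replicate 1 of both inhibitors, 3.42% in A-485 replicate 1 and 37.0% in I-CBP112 replicate 2.

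The share of a transcript in its gene does not enter the rule, and it was tested for 28099 transcripts with limma on the log2 ratio of the transcript to the rest of its gene. None passed in A-485 against I-CBP112 or in both inhibitors against DMSO (0% of transcripts; 1194 and 1072 at an unadjusted p under 0.05), and the 19 tested transcripts of the 10 genes were among those that did not. The largest shift relative to its error was that of TFPI-203, whose log2 ratio was higher by 1.25 ± 0.41 with A-485 than with I-CBP112 (limma, adjusted p = 0.9999). DDC-205 was lower by -1.13 ± 0.64 in the same comparison (limma, adjusted p = 0.9999). The errors of the 19 transcripts ran from 0.41 to 1.45 on this scale. Shifts well above their error could go uncalled too, as that of TFPI-203 did, so the lack of calls says little about the use of forms.

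**Figure D5:**
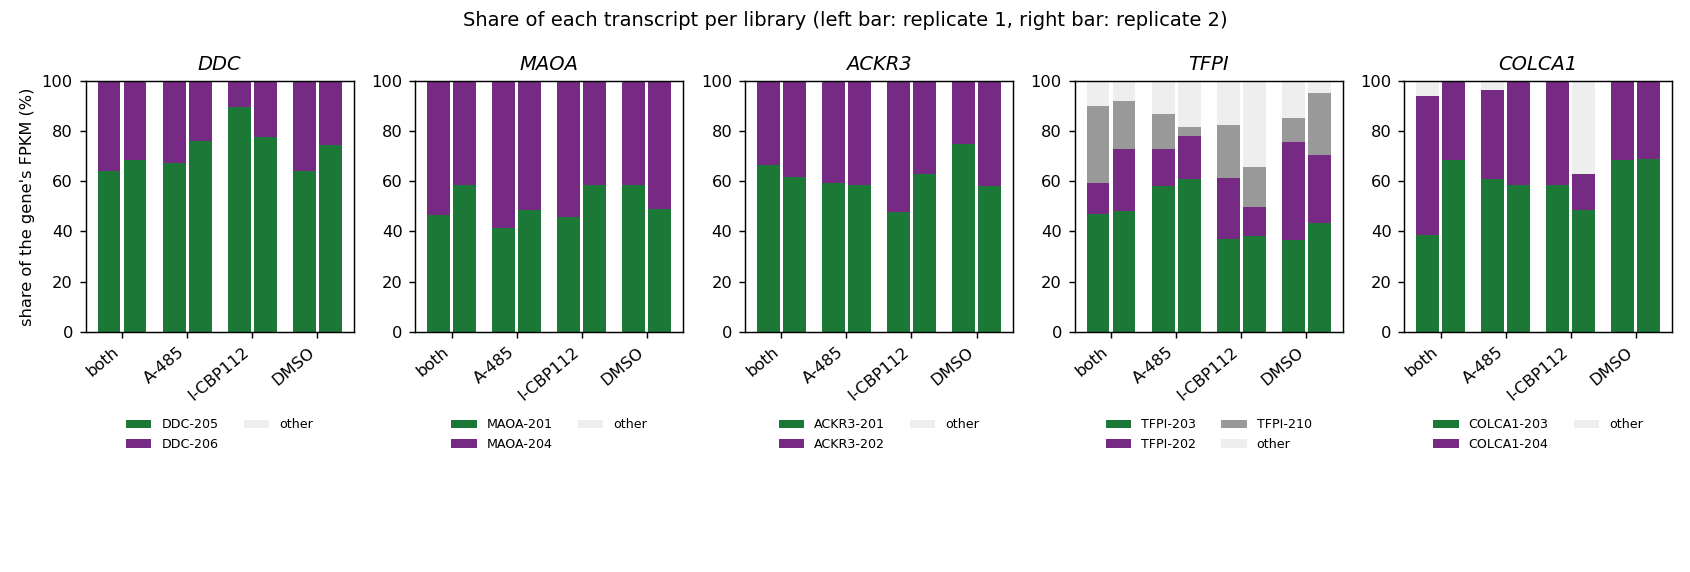
Share of each named transcript in its gene's FPKM (vertical axis, %) in each library, for DDC, MAOA, ACKR3, TFPI and COLCA1. DDC-205 lies between 64.0% and 89.8%, and TFPI-203 is highest in the A-485 libraries, at 58.1% and 60.8%, with no share passing the test.

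Among themselves the 10 genes correlated over the 8 libraries between r = 0.14, for DDC with TM4SF1, and r = 0.97, for CAMK2N1 with HGD. The correlations are a description over libraries that share groups and depth. Set against the mean profile of the 10, DDC and TM4SF1 were the farthest, at r = 0.752 and 0.751, and PLK2, COLCA1, TFPI and ACKR3 the closest, at 0.959 or above. The pair CAMK2N1 and HGD shared a lower level with I-CBP112 alone, and the pair DDC and MAOA a lower level with A-485 alone.

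The other genes whose log2 levels were most like the mean profile of the 10, by Pearson r over the same 8 libraries, were UGT2B17 (0.991), ICK (0.987), NAALADL2 (0.978), ZNF367 (0.976), CDK19 (0.975), SLC2A12 (0.973), SFXN2 (0.973), NETO1 (0.972), SYT4 (0.971) and ABCC4 (0.964). UGT2B17, an enzyme that conjugates androgens to glucuronic acid, had 3.83 and 4.66 scaled FPKM with both inhibitors, 23.0 and 29.5 with A-485, 16.5 and 22.4 with I-CBP112, and 19.3 and 19.5 with DMSO. It has near-identical relatives, so part of its reads may be theirs. NETO1, a receptor accessory protein, had 21.7 and 16.1 with both inhibitors, 77.8 and 83.9 with A-485, 76.0 and 71.9 with I-CBP112, and 90.4 and 96.0 with DMSO. SYT4, a synaptotagmin, had 0.256 and 0.246 with both inhibitors, 6.59 and 8.45 with A-485, 5.15 and 3.41 with I-CBP112, and 6.04 and 9.85 with DMSO. In all 3 both libraries of the combination lay below the other 6. In NETO1 and SYT4 the I-CBP112 libraries lay below DMSO as well, and in NETO1 so did the A-485 libraries.

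ACKR3 and CAMK2N1 are known to be repressed by androgen in prostate cells, and 7 of 15 other listed androgen-repressed genes were tested. With both inhibitors against DMSO 5 of the 7 fell and 0 rose (7.55% of all genes tested fell), with a median log2 change of -1.36, beside 0.01 over all. The median interaction of the 7 was -1.59, beside 0.04 over all genes tested. The 5 included UGT2B15 and UGT2B17, genes of 1 family that may share reads, so they may not count apart. SERPINI1 did not fall (0.26 ± 0.24; limma, adjusted p = 0.529). The response of the listed genes to androgen was not measured here. TMEFF2, a membrane protein of prostate and brain, had 10.1 and 15.6 scaled FPKM with both inhibitors, 16.01 and 22.3 with A-485, 97.9 and 108 with I-CBP112, and 51.9 and 66.1 with DMSO, the same order of groups as DDC. Of 20 listed androgen-induced genes 19 were tested, of which 15 fell with both inhibitors (7.55% of all genes tested fell) and 12 with A-485 alone (3.39% of all genes tested fell with A-485, with 149 higher and 403 lower calls, which became 378 and 161 with library totals only). Their median interaction was -0.49. The genes of the inhibited proteins, EP300 and CREBBP, did not pass against DMSO with both inhibitors (0.56 ± 0.21 and 0.53 ± 0.28; limma, adjusted p = 0.131 and 0.263).

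Among the marker lists, the 7 neuroendocrine markers in the table summed to 75.3 to 78.0 scaled FPKM with both inhibitors, 35.9 to 38.0 with A-485, 32.2 to 33.4 with I-CBP112 and 19.2 to 31.9 with DMSO. Nearly all of it was ENO2, a neuron-enriched enolase that other cells also make (1.59 ± 0.25 for both against DMSO; limma, adjusted p = 0.00678), with some SYP (1.16 ± 0.26; limma, adjusted p = 0.0276). CHGA, CHGB, INSM1 and NEUROD1, which are among the defining markers of that list, were at or under 0.1 in every library. The luminal markers summed to 1793 to 2430 scaled FPKM with both inhibitors, 2048 to 2406 with A-485, 3174 to 3384 with I-CBP112 and 4477 to 5451 with DMSO. Most of that fall was KLK3, at 50.9 and 50.2 with both inhibitors and 2305 and 1996 with DMSO. With both inhibitors 5 of the 8 passed as lower and 0 as higher (7.55% and 2.96% of all genes tested). KRT8 (0.08 ± 0.41; limma, adjusted p = 0.921), HOXB13 (-0.26 ± 0.28; limma, adjusted p = 0.576) and FOLH1 (-0.32 ± 0.19; limma, adjusted p = 0.317) did not pass. The part of these shifts in the levels of the 10 genes was not tested.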

How the data were processed

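The authors deposited 1 table of 81591 transcripts in 8 libraries, named as counts. Because 78.3% of the values were not whole, they were read as FPKM made by the authors. Per the submitters' processing notes, hg19 or GRCh37 was the build, and the tools were STAR and Cufflinks with DESeq and DESeq2, without versions or roles. Transcripts were assigned to genes, and positions given, by GENCODE release 29 (GRCh38), which 74209 (91.0%) matched. The sum per gene was scaled to 1000000 and by a trimmed mean of log ratios (30% and 5% trimmed). Genes at 1 or more in at least 2 libraries entered limma 3.58.1 (R 4.3.3) as log2(value + 1), with a trended, robust spread over the 4 groups. There were 4 residual degrees of freedom, and p-values had Benjamini-Hochberg adjustment, called under 0.05. The pseudocount understates changes of low genes. As deposited, the median gene shifted by 0.58 with both inhibitors, 0.35 with A-485 and 0.05 with I-CBP112 (log2, against DMSO), and scaling brought these to within 0.02. Fragments were estimated from the step between low values (37 to 55 genes per library, tolerance 0.05), of which 77.0% to 80.9% were whole multiples within 0.1 of a fragment. FPKM gives no exact depth, and the estimates cover counting only. The limma fit was run on simulated data with known changes in the group of both inhibitors, read against DMSO only. The simulation did not cover the interaction, the transcript shares or a shift with replicate number.

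The 10 genes, the lists and the tests were chosen with earlier results of these data known. The genes named are the 10, at most 3 called genes per list with the direct partners of the 10, the 10 genes most like their mean profile, and KLK3. The motifs and the promoter windows shown were chosen after values were seen. Alternatives were other scalings, pseudocounts and filters, no trended or robust spread, each library left out, a replicate block, other scales or transcripts, and each replicate number alone. Some genes of the lists are not reported here.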

Additional observations from a re-analysis of the deposited data

Results flagged for a closer look

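In 7 of the 10 genes an inhibitor alone gave a level above DMSO in both libraries, whereas on top of the other inhibitor it gave a level below that inhibitor alone in both libraries. The same held for 5.58% of all genes tested. These differences were not tested, because they chose the genes. A-485 alone was above DMSO, and A-485 with I-CBP112 below I-CBP112, in BCHE (interaction -2.28), ACKR3 (-2.01), PLK2 (-1.77), TM4SF1 (-2.45) and COLCA1 (-2.36). I-CBP112 alone was above DMSO, and with A-485 below A-485, in DDC (-2.17), MAOA (-2.02) and BCHE (-2.28). In BCHE both libraries of each single inhibitor lay above both DMSO libraries, and both libraries of the combination lay below them.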

How the results depend on the processing

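The median interaction of the 10 genes was -2.10 and stayed negative in every alternative. It was -2.35 with library totals only, -2.32 and -2.21 with pseudocounts of 0.1 and 0.5, and -1.87 on the most abundant transcript of each gene. On the linear scale the median was -20.2 scaled FPKM. Leaving out each library gave -2.24 to -2.01.

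Scaling by totals only gave 39 calls between A-485 and I-CBP112 and 4 in the interaction, and with no filter on low values these were 36 between A-485 and I-CBP112 and 359 for A-485 against DMSO. Leaving out each library gave 6 to 118 calls for A-485 against I-CBP112, 291 to 1332 for both inhibitors against DMSO, 47 to 1393 for A-485 against DMSO, 0 to 2 for I-CBP112 against DMSO (0 with all libraries, 1321 at an unadjusted p under 0.05), and 0 in the interaction. No transcript share passed in either comparison tested under any alternative that was run.

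The replicate numbers share a column prefix whose meaning is not given. Same-numbered libraries deviated together in each pair of groups, at r = 0.14 to 0.43, so levels shifted with the number. With 2 numbers this does not show pairing, because the numbers also differ in depth and in the share on transcripts. With a replicate block the calls were 306 for A-485 against I-CBP112, 2279 for both inhibitors against DMSO, 1587 for A-485 against DMSO and 11 in the interaction, and MAOA, HGD and CAMK2N1 then passed between the single inhibitors (limma, adjusted p = 0.0258, 0.0388 and 0.0200).

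CAMK2N1 also passed with library totals only (limma, adjusted p = 0.0391). The ACKR3 difference between A-485 and I-CBP112 reversed to -0.0606 without I-CBP112 replicate 2, where leaving out each library gave up to 0.293, and to -0.00823 within replicate number 1. With a pseudocount of 0.1 the interaction was -3.79 in TM4SF1 and -2.78 in HGD, and the change with both inhibitors against DMSO was -3.30 in TM4SF1. That change was -0.46 in BCHE with library totals only. The few fragments of TM4SF1 and HGD with both inhibitors limit these values.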
